A study of Mus musculus with 2 samples.

Results

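Glycolysis converts glucose to pyruvate, and lactate dehydrogenase then converts pyruvate to lactate or back again. Photoreceptors are known for making lactate from glucose even when oxygen is present, and lactate that leaves them can be taken up and burnt by Müller glia and other retinal cells. The genes described here are the 9 members of a fixed list for this route, matched by symbol among the 32227 genes of the deposited gene table: the hexokinases Hk1 and Hk2, the aldolases Aldoa and Aldoc, the pyruvate kinase gene Pkm, the lactate dehydrogenase genes Ldha and Ldhb, the glucose transporter gene Slc2a1 and the lactate transporter gene Slc16a1. All 9 were found and all 9 passed a filter of 10 CPM (UMIs of a gene per 1000000 UMIs) in at least 1 library.

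To ask what loss of the TET enzymes, which oxidize 5-methylcytosine, does to the retina, the study sequenced nuclei of whole retinas from C57 BL/6J mice at postnatal day 21. One library came from Cre- controls, labelled WT and bred from Cre- parents. The other came from Tet tcKO animals, in which floxed Tet1, Tet2 and Tet3 (both alleles of each) were targeted by a Chx10-Cre-GFP transgene active in retinal progenitor cells. That transgene is mosaic, and the study bred Cre-positive animals to each other to counter this. Separate dissociation pools entered each library, but the cell tables do not say which pool a nucleus came from. Each genotype therefore counts as 1 sample, no difference between genotypes can be tested, and every interval below covers counting error only, not the spread between animals.

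The Cre- library held 7357 nuclei with a median of 1107 UMIs, and the Tet tcKO library 6766 nuclei with a median of 1836.5 UMIs. The 13 mitochondrial genes took 5.47% of UMIs in Cre- and 1.76% in Tet tcKO. Of the targeted genes, Tet1 stood at 50.2 and 61.2 CPM, Tet2 at 105 and 139 CPM and Tet3 at 180 and 174 CPM in Cre- and Tet tcKO, but 3′ counts outside the deleted exons do not check the deletion. One of 14123 cell barcodes occurred in both libraries. Of the Cre- photoreceptors, 5214 nuclei were annotated as rods and 265 as cones, whereas 6 and 3225 were so annotated in Tet tcKO. No rod or cone cluster had 50 nuclei or more in both libraries, so rods and cones were pooled for the comparison between genotypes. Of 15 clusters annotated as rods, 4 had more marker genes of another class than of rods among their 10 leading genes. That count took each gene once per nucleus, and summed UMIs gave 2. A cluster led by no marker of any class passed this check. Rod clusters 16, 20, 21, 25 and 44 passed with no rod marker by either count. Leaving out every rod cluster that failed moved the photoreceptor median of the 9 genes from -0.23 to -0.27, but kept those clusters.

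The promoters of 3 genes are shown first, Hk1 and Hk2 because they were the members with the lowest Tet tcKO to Cre- ratio in photoreceptors, and Slc2a1 because its ratio was above 0 there. Each window runs from 250 bases before to 50 bases after a RefSeq start site on GRCm38.p6, printed in the direction of transcription. For Hk1, on the minus strand, the CpG-rich one of its 2 listed start sites is given (chr10:62340372-62340671). Hk2 is on the minus strand (chr6:82774405-82774704) and Slc2a1 on the plus strand (chr4:119108495-119108794). Capitals mark ACGTG on either strand, the core of the site bound by hypoxia-inducible factors. 
Hk1: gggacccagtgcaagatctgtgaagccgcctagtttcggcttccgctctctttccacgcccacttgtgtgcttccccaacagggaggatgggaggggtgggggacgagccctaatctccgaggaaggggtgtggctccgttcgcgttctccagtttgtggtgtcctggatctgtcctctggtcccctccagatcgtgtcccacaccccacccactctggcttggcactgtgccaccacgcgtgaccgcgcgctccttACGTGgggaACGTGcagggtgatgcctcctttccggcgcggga
Hk2: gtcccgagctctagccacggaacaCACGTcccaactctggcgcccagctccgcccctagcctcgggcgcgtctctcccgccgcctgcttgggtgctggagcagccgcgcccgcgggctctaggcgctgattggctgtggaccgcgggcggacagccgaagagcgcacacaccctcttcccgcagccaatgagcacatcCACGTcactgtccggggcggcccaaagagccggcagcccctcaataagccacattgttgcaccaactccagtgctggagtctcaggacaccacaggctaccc
Slc2a1: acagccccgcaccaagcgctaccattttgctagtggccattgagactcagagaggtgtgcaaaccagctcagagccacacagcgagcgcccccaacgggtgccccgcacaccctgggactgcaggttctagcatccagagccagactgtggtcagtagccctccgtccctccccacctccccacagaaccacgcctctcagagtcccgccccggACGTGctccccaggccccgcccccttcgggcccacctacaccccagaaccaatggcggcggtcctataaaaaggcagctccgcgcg
The Hk1 and Hk2 windows each held 2 copies of ACGTG and the Slc2a1 window held 1. Among 32851 RefSeq promoter windows of the same length, 19.6% held at least 1 copy. The CpG number was 20 in the Hk1 window, 25 in the Hk2 window and 18 in the Slc2a1 window, against a median of 7 over all windows. The Hk1 window was picked as the CpG-rich one, and the other Hk1 window held 1 CpG and no copy of ACGTG. Ldha had the most copies of ACGTG among the members, 5 in 1 of its 2 windows, 2 of them in the palindrome CACGTG, which 7.15% of windows held. The Slc16a1 window held 3 copies of ACGTG. The photoreceptor motif TAATCC, a site of the factor CRX, was found in 1 window each of Ldha and Aldoc and in 7.06% of all windows. Ldhb had none of these motifs. A match of letters is a description of the window and not evidence of binding.

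The hexokinases catalyse the entry step of glycolysis, the phosphorylation of glucose. Hk1 (GRCm39 chromosome 10, 62104621 to 62215687) is the form found in most tissues, and Hk2 (chromosome 6, 82699740 to 82751469) is the form known for highly glycolytic cells, photoreceptors among them. Over all nuclei, Hk1 stood at 188 CPM (95% Poisson interval 180 to 196) in Cre- and 110 CPM in Tet tcKO, with a log2 ratio of -0.77 (exact interval -0.86 to -0.68). Hk2 stood at 170 CPM in Cre- against 85.9 CPM in Tet tcKO, with a log2 ratio of -0.98 (-1.08 to -0.88). These were the 2 lowest ratios of the 9 genes, and no member crossed a 2-fold difference.

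The difference lay inside photoreceptors as well. In rods and cones pooled, Hk1 was 210 CPM in Cre- against 121 CPM in Tet tcKO, with a log2 ratio of -0.79 (-0.91 to -0.68). Hk2 was 214 CPM in Cre- against 121 CPM in Tet tcKO, with a log2 ratio of -0.82 (-0.94 to -0.70). Hk1 and Hk2 were thus lower by nearly the same factor, and the ratio of Hk1 UMIs to Hk2 UMIs in photoreceptors was 0.982 in Cre- and 0.997 in Tet tcKO, a log2 change of 0.02 (-0.15 to 0.19). After each nucleus was thinned to 500 UMIs, Hk1 was seen in 10.4% of Cre- and 6.78% of Tet tcKO photoreceptors, where the unthinned shares were 24.8% and 24.1%. For Hk2 the thinned shares were 9.87% and 5.57%. Hk1 and Hk2 were the only members to differ by 1.5-fold or more in pooled photoreceptors, both lower. In that comparison 7.1% of the 11377 genes at 10 CPM or more were 1.5-fold or more lower and 22.9% were 1.5-fold or more higher, while 2.58% were 2-fold or more lower and 6.67% were 2-fold or more higher.

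The hexokinases also stood apart across photoreceptor clusters. In the 15 Cre- rod and cone clusters of 50 nuclei or more, Hk1 ranged from 147 to 265 CPM, and in the 8 Tet tcKO clusters it ranged from 95.4 to 145 CPM. The nearest clusters almost met, with 41 Hk1 UMIs behind the lowest Cre- value and 34 behind the highest Tet tcKO value. Hk2 ranged from 153 to 268 CPM over the Cre- clusters and from 76.9 to 143 CPM over the Tet tcKO clusters. These 2 members were the ones for which every Tet tcKO cluster lay below every Cre- cluster, as for 1.49% of genes. None lay wholly above, as 3.08% of genes did. Clusters of 1 library are not replicates, and no photoreceptor cluster was shared at that size, so genotype and cluster membership cannot be told apart here.

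**Figure D1:**
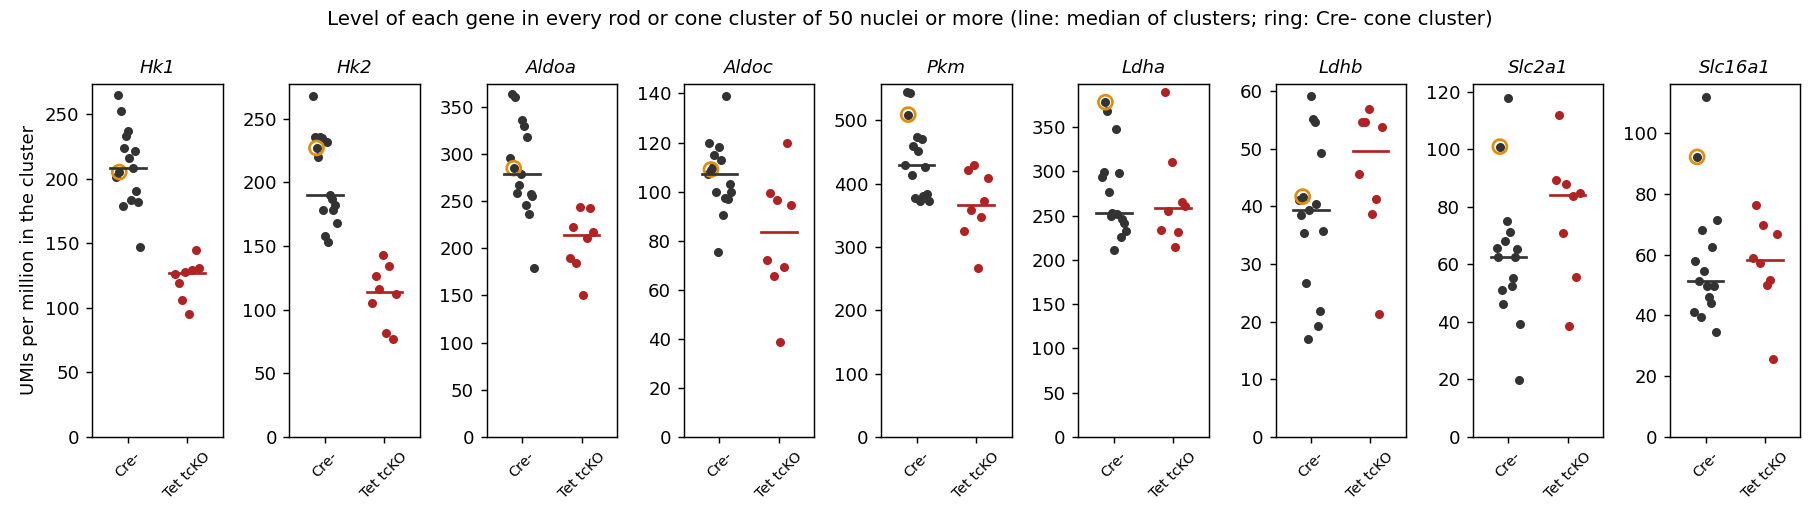
Level of each of the 9 genes (CPM, y axis, a separate scale from 0 for each gene) in every cluster annotated as rods or cones with 50 nuclei or more, as 1 point per cluster for Cre- (15 clusters, black) and Tet tcKO (8 clusters, red), with a line at the median cluster and a ring around the Cre- cone cluster. For Hk1 and Hk2 the points of the 2 libraries do not overlap, whereas those of the other 7 genes do.

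The share of mitochondrial UMIs moved with genotype in photoreceptors, 6.98% in Cre- and 2.55% in Tet tcKO. Among photoreceptor nuclei with an authors' mitochondrial percent from 5 to 8, of which Cre- had 801 and Tet tcKO 2437, the log2 ratio was -0.83 for Hk1 and -0.95 for Hk2. The hexokinase values were thus as low within this range as over all photoreceptors. Gene length also differed between members, from 5.27 kb for Aldoc to 111 kb for Hk1, and nuclear counts include unspliced RNA. Among genes of 100 kb or more, 10.7% were 1.5-fold or more lower in Tet tcKO photoreceptors, against 7.32% of genes from 30 to 100 kb, the range that holds Hk2. That photoreceptor share was 4.39% for genes from 10 to 30 kb and 6.65% for genes under 10 kb. Over all nuclei the share was 6.15% for genes of 100 kb or more and 11.5% for genes under 10 kb. The part of length in the hexokinase values was not tested.

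Both hexokinase genes lie on the same chromosome as a floxed Tet gene. Hk1 is 425 kb from Tet1 and Hk2 is 588 kb from Tet3. Within 1 Mb of Tet1, 19 genes reached 10 CPM, their median log2 ratio over all nuclei was 0.31, and 1 of them was lower than Hk1. Within 1 Mb of Tet3, 25 genes reached 10 CPM, their median was 0.09, and 3 of them were lower than Hk2. Among all genes at 10 CPM or more, 4.21% were lower than Hk1 and 2.59% were lower than Hk2. The median of all genes over all nuclei was 0.15, so the median around Tet1 lay above it and the median around Tet3 below it. Whether DNA linked to the floxed alleles differs in strain from the controls is unknown here, and its part in the values was not tested.

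The aldolases split the 6-carbon sugar into triose phosphates. Aldoa (chromosome 7, 126393822 to 126399923) is the form of muscle and most tissues, and Aldoc (chromosome 11, 78213619 to 78218889) is the brain form. Over all nuclei Aldoa was 241 CPM in Cre- against 143 CPM in Tet tcKO, with a log2 ratio of -0.75 (-0.83 to -0.67). Aldoc was 89.0 CPM in Cre- against 57.2 CPM in Tet tcKO, with a log2 ratio of -0.64 (-0.77 to -0.51). In rods and cones pooled the aldolases differed by less, with a log2 ratio of -0.45 (-0.55 to -0.36) for Aldoa and -0.31 (-0.46 to -0.16) for Aldoc. The ratio of Aldoa UMIs to Aldoc UMIs in photoreceptors was 2.77 in Cre- and 2.51 in Tet tcKO, a log2 change of -0.14 whose interval (-0.32 to 0.04) included 0. Aldoa overlaps Tlcd3b on the opposite strand, which held 10311 UMIs in Cre- and 6313 in Tet tcKO, and no source says whether counting used strand, so the level of Aldoa is uncertain. A further 18 and 16 UMIs under the same symbol belong to a further, overlapping gene model and were not added.

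Pkm (chromosome 9, 59563364 to 59586663) encodes the muscle-type pyruvate kinase, which makes pyruvate in the last step of glycolysis. Over all nuclei Pkm was 392 CPM in Cre- against 271 CPM in Tet tcKO, with a log2 ratio of -0.53 (-0.59 to -0.47), which was also the median of the 9 members. The median of all 11158 genes at 10 CPM or more was 0.15. In pooled photoreceptors Pkm was 452 CPM in Cre- against 387 CPM in Tet tcKO, with a log2 ratio of -0.23 (-0.30 to -0.15), again the median member, where the median gene was 0.23. Pkm thus lay below the middle of all genes in both comparisons. The splice forms of Pkm could not be separated from counts per gene.

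Lactate dehydrogenase is a tetramer of the products of 2 genes. Ldha (chromosome 7, 46490899 to 46505061) encodes the subunit that favours lactate production, and Ldhb (chromosome 6, 142435672 to 142454586) the subunit that favours its oxidation. Over all nuclei Ldha was 244 CPM in Cre- against 189 CPM in Tet tcKO, with a log2 ratio of -0.36 (-0.44 to -0.29). In pooled photoreceptors it was 297 CPM in Cre- against 298 CPM in Tet tcKO, with a log2 ratio of 0.01 (-0.08 to 0.09). The pooled value thus lay within counting error of 0 on this scale, although with TMM scaling, which sets the middle of the genes near 0, it was -0.18. Against the Cre- nuclei annotated as cones alone, at 378 CPM, the Ldha ratio was -0.34 (-0.50 to -0.18). The thinned shares of photoreceptors with an Ldha UMI were 13.5% in Cre- and 13.4% in Tet tcKO.

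Ldhb went the other way from the hexokinases. In pooled photoreceptors it was 37.9 CPM in Cre- against 50.9 CPM in Tet tcKO, with a log2 ratio of 0.43 (0.20 to 0.65). With TMM scaling that ratio was 0.23. The number of Ldha UMIs per Ldhb UMI in photoreceptors was 7.83 (6.92 to 8.89) for Cre- against 5.86 (5.26 to 6.56) for Tet tcKO, a log2 change of -0.42 (-0.66 to -0.18) that does not depend on library scaling. In retinal ganglion cells (RGCs) this ratio was 2.38 in Cre- and 1.46 in Tet tcKO, a log2 change of -0.70 (-1.32 to -0.09). In bipolar and amacrine nuclei the intervals of the change included 0. The RGC value compares partly different clusters, since in the shared RGC cluster 2 there were 39 Ldha and 30 Ldhb UMIs in Cre- and 56 and 40 in Tet tcKO, a ratio that was not lower.

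**Figure D2:**
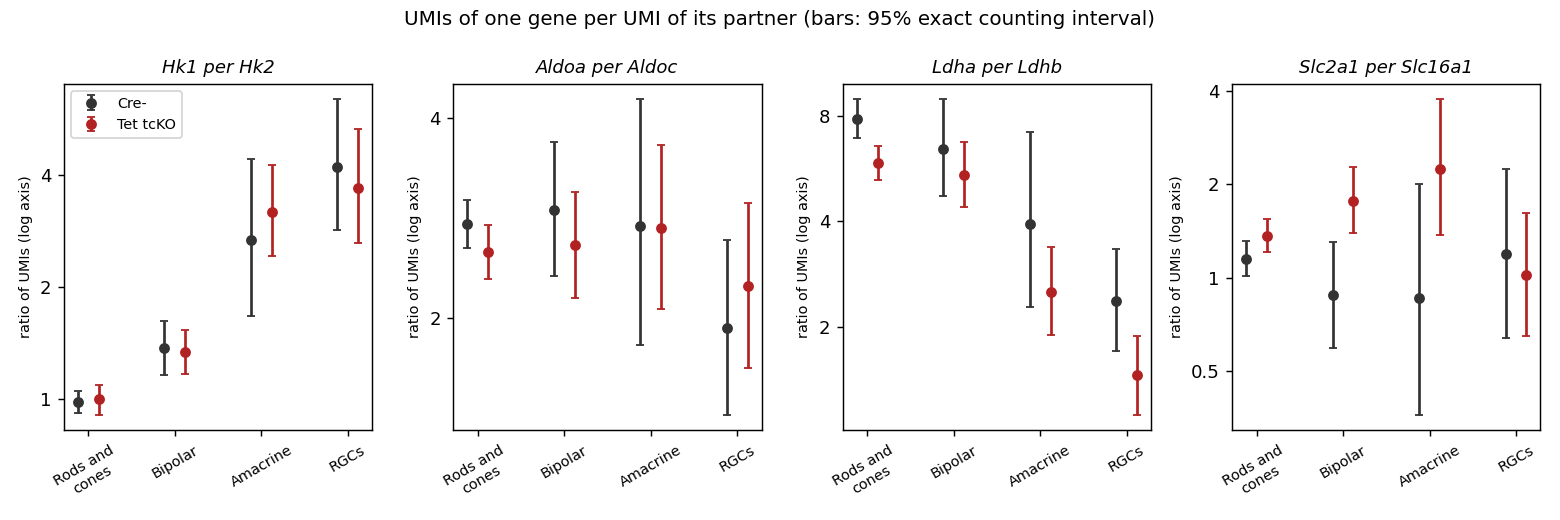
UMIs of one gene per UMI of its partner (y axis, log scale) in pooled rods and cones, bipolar, amacrine and retinal ganglion nuclei of Cre- (black) and Tet tcKO (red), with exact 95% counting intervals as bars. Hk1 per Hk2 was near 1 in photoreceptors of both libraries and higher in ganglion cells, and Ldha per Ldhb stood at 7.83 in Cre- and 5.86 in Tet tcKO photoreceptors.

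Slc2a1 (chromosome 4, 118965908 to 118996365) encodes GLUT1, the transporter that brings glucose into photoreceptors and across the blood-retinal barrier. Over all nuclei it was 53.1 CPM in Cre- against 56.9 CPM in Tet tcKO, with a log2 ratio of 0.10 (-0.05 to 0.25). In pooled photoreceptors it was 66.5 CPM in Cre- against 87.5 CPM in Tet tcKO, with a log2 ratio of 0.39 (0.22 to 0.57), or 0.20 with TMM scaling. The median gene there, 0.23, lay within that interval. Against the Cre- nuclei annotated as cones alone, which stood at 101 CPM, the direction turned, with a log2 ratio of -0.20 (-0.50 to 0.11). After thinning, the shares of photoreceptors with a Slc2a1 UMI were 3.14% and 3.13%, so the higher level was not seen in the shares.

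Slc16a1 (chromosome 3, 104545811 to 104565780) encodes MCT1, a carrier of lactate and pyruvate. Over all nuclei it was 47.4 CPM in Cre- against 39.5 CPM in Tet tcKO, with a log2 ratio of -0.26 (-0.43 to -0.10). In pooled photoreceptors it was 57.9 CPM in Cre- against 64.2 CPM in Tet tcKO, with a log2 ratio of 0.15 (-0.04 to 0.34), or -0.04 with TMM scaling. Against the Cre- cone nuclei alone, at 92.1 CPM, the ratio was -0.52 (-0.84 to -0.19). For both transporters and for Ldha the direction in photoreceptors therefore depended on which Cre- photoreceptors were taken. For Hk1 and Hk2 it did not, with ratios of -0.76 and -0.90 against the Cre- cone nuclei.

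**Figure D3:**
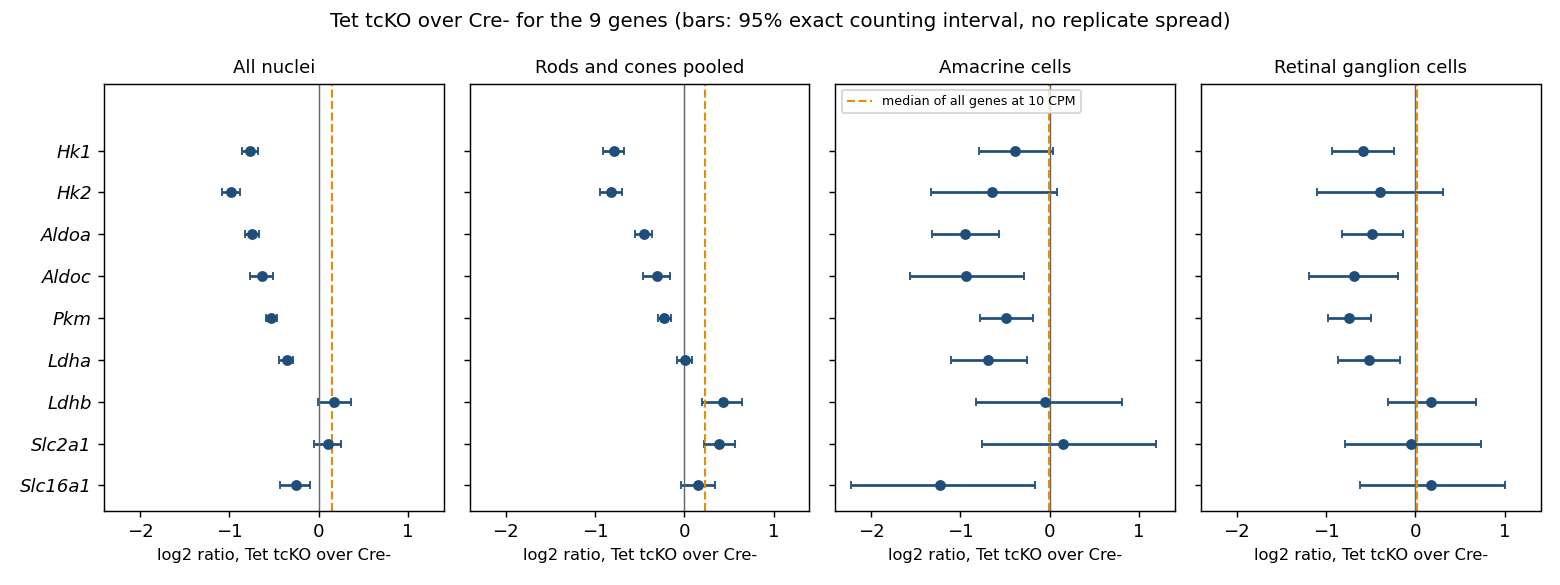
Log2 ratio of Tet tcKO over Cre- (x axis) for the 9 genes in all nuclei, pooled rods and cones, amacrine cells and retinal ganglion cells, with exact 95% counting intervals as bars, a solid line at 0 and a dashed line at the median of all genes at 10 CPM or more. Hk1 and Hk2 lie farthest to the left in pooled photoreceptors, at -0.79 and -0.82, while Ldhb and Slc2a1 lie to the right of 0 there.

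Over all nuclei, 7 of the 9 genes had a counting interval below 0, as did 22.5% of all genes, and none had one above 0, as did 45.7%. The sum of the 9 genes was 1459 CPM in Cre- against 994 CPM in Tet tcKO. Hk1, Hk2, Aldoa and Aldoc were 1.5-fold or more lower, which held for 6.93% of all genes, and no member was 1.5-fold or more higher, which held for 12.9% of genes. At the 2-fold limit no member was called in either direction, where 2.48% of genes were lower and 3.18% higher. In whole-retina sums, fewer cells of a class and less RNA per cell of that class cannot be told apart, and a division by UMI shares of the annotated classes is given as a description.

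Photoreceptors supplied 65.8% of UMIs in Cre- and 44.7% in Tet tcKO. Of the difference of -77.7 CPM in Hk1, the change of class shares made up 9.58%, and of the difference of -83.8 CPM in Hk2 it made up 23.6%. For Pkm, Aldoa and Aldoc the class part was 33.2%, 27.8% and 33.6%. For Ldha it was 67.5% of -54.1 CPM, and the level part within photoreceptors was 0.921 CPM. For Slc16a1 the class part was 103% of -7.89 CPM. The photoreceptor level in this division also holds the change from rod to cone annotation, so class and level cannot be told apart by it.

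Among classes of the Cre- library, 6 of the 9 genes had their highest level in nuclei annotated as cones, Hk1 and Aldoa in rods, and Ldhb in RGCs. The leading rod and cone levels of Hk1, Hk2, Aldoa and Aldoc overlapped in their intervals. The cone levels of Slc2a1 and Slc16a1 overlapped those of Müller glia. Hk2 stood at 227 CPM in cones, 211 in rods, 144 in Müller glia, 137 in bipolar cells, 44.8 in amacrine cells, 26.0 in RGCs and 25.3 in horizontal cells. Hk1 ran from 211 CPM in rods to 101 in horizontal cells, with each class overlapping the next. The RGC level of Ldhb, 43.1 CPM, overlapped that of cones, 41.7 CPM.

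Some of these levels can be RNA of photoreceptors carried in free solution. In Cre- amacrine nuclei the rod genes Nrl, Nr2e3, Gnat1, Pde6a and Cnga1 stood at 22.9% to 25.8% of their photoreceptor level, and in RGCs at 14.1% to 20.3%. Hk2 stood at 21.0% and 12.2%, below those ranges but on 25 and 32 UMIs, so these Cre- levels cannot be told apart from background. In Tet tcKO amacrine nuclei Hk2 stood at 23.6%, just above the 17.5% to 22.9% of the rod genes there. On 67 UMIs (28.6 CPM, 22.2 to 36.3) Hk2 cannot be told apart from background there either. In Tet tcKO RGCs it stood at 16.2%, within their 11.8% to 18.6%. Hk1 stood at 57.2% and 52.3% and Ldhb at 80.3% and 114%, above those ranges. Slc16a1 stood at 16.6% in Tet tcKO amacrine nuclei, on 25 UMIs. The rod genes stood at 17.5% to 22.9% there and the cone genes Gnat2 and Opn1sw at 15.8% and 17.8%. That level of Slc16a1 cannot be told apart from background either.

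**Figure D4:**
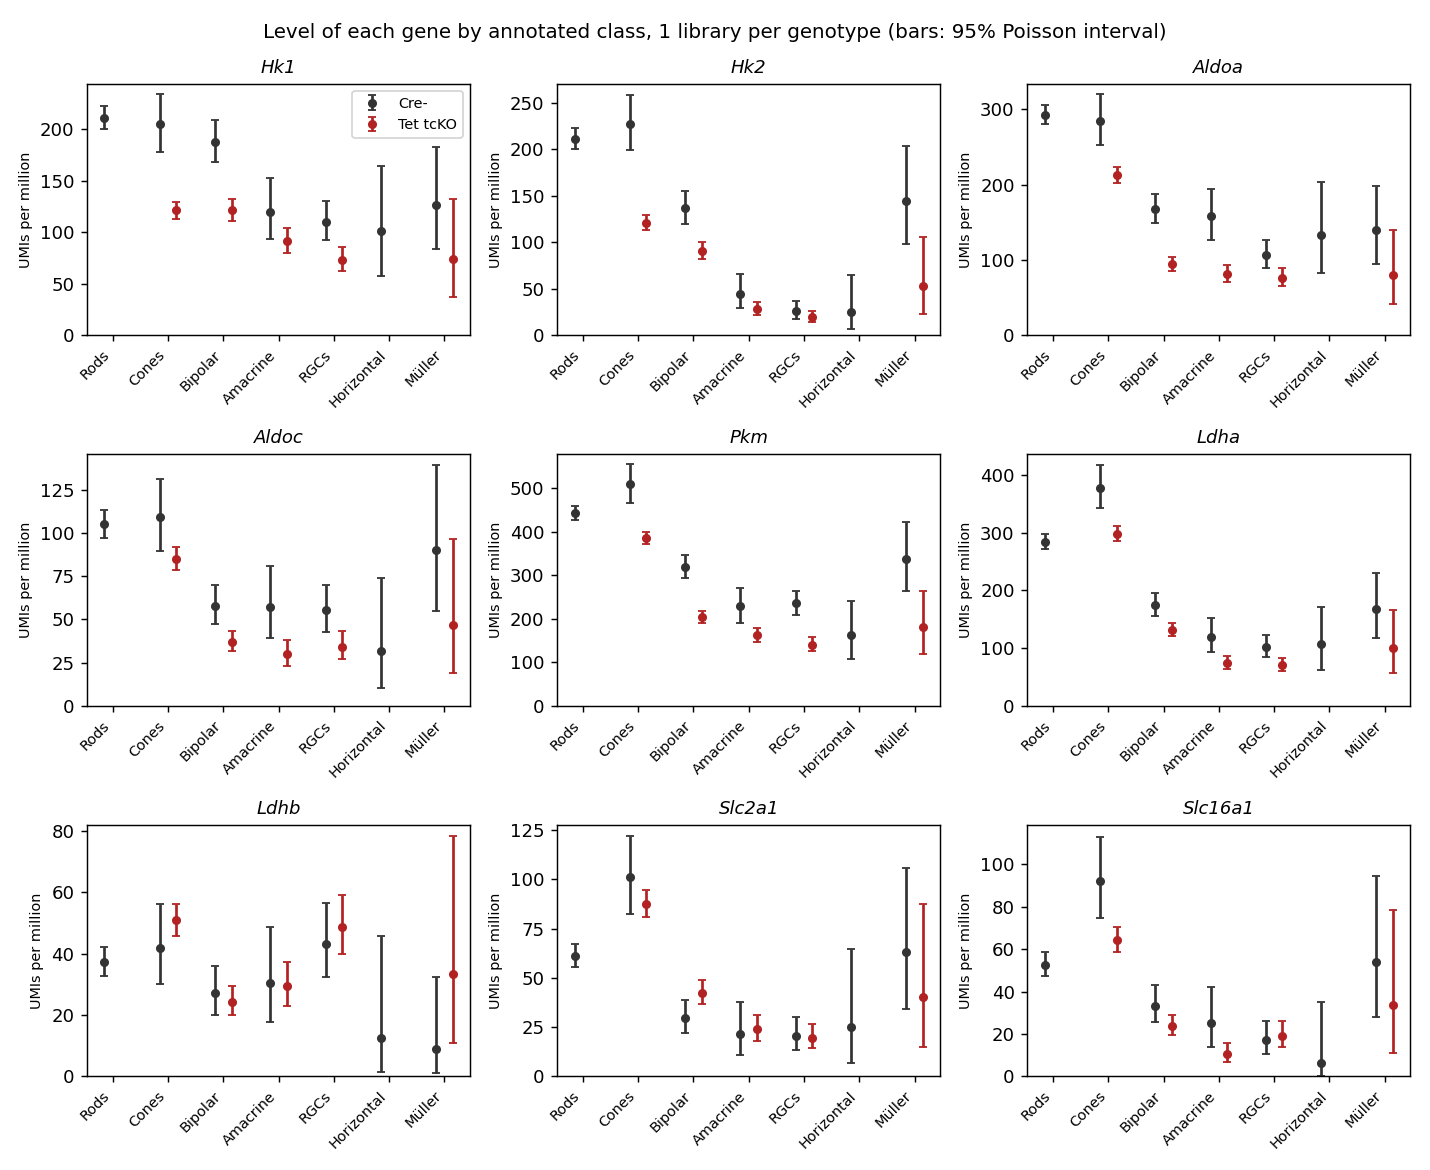
Level of each of the 9 genes (CPM, y axis, a separate scale from 0 for each gene) by annotated class in Cre- (black) and Tet tcKO (red), 1 library each, with 95% Poisson intervals as bars. Classes with fewer than 50 nuclei in a library (rods and horizontal cells in Tet tcKO) are not drawn. Hk2 stands at 211 to 227 CPM in Cre- rods and cones and at 26.0 CPM in RGCs.

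In amacrine cells (403 and 1043 nuclei) 8 of the 9 genes had a ratio below that of the median gene, -0.01. The median of the 9 was -0.65. Slc2a1 stood at 0.15 there, with an interval that included 0. Aldoa was 158 CPM in Cre- against 81.5 CPM in Tet tcKO there, with a log2 ratio of -0.95 (-1.32 to -0.57), and Ldha was 120 and 74.3 CPM, a log2 ratio of -0.69 (-1.11 to -0.26). Hk2, Ldha, Aldoa, Aldoc and Slc16a1 had ratios 1.5-fold or more lower, as did 16.7% of genes, but the Hk2 interval (-1.33 to 0.08) included 0. Hk2 in both libraries and Slc16a1 in Tet tcKO also rest on levels not told apart from background above. None was 1.5-fold or more higher, as were 16.7% of genes. Cluster 27 held most Cre- amacrine nuclei, and clusters 12, 23 and 24 most Tet tcKO ones. In cluster 13, the amacrine cluster with 50 nuclei or more in both libraries, the summed level was 981 CPM in Cre- against 558 CPM in Tet tcKO, with a log2 ratio of -0.81 (-1.18 to -0.45).

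In RGCs (567 and 704 nuclei) 7 of the 9 genes had a ratio below that of the median gene, 0.02. The median of the 9 was -0.48. Ldhb at 0.18 and Slc16a1 at 0.17 had intervals that included 0. Pkm was 236 CPM in Cre- against 141 CPM in Tet tcKO, with a log2 ratio of -0.74 (-0.98 to -0.50), and Hk1 was 110 and 73.1 CPM, a log2 ratio of -0.59 (-0.93 to -0.24). Hk1, Pkm and Aldoc were 1.5-fold or more lower, as were 10.8% of genes, and none was 1.5-fold or more higher, as were 11.8%. Within clusters shared by the libraries the RGC difference was small. The summed level in cluster 2 was 619 CPM in Cre- against 536 CPM in Tet tcKO, with a log2 ratio of -0.21 (-0.42 to 0.01), and in cluster 31 it was 472 and 532 CPM, a log2 ratio of 0.17 (-0.31 to 0.69). Cluster 8 held most Cre- RGC nuclei, so the class value compares partly different clusters. Rod marker RNA was lower in these Tet tcKO classes too, with the summed level of 12 rod markers at 3416 and 1491 CPM in amacrine cells and at 2594 and 1091 CPM in RGCs, and their part in the member values was not tested.

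Of 9 bipolar clusters, 4 were led by marker genes of another class by summed UMIs, and 1 with each gene counted once per nucleus, so bipolar levels are given by cluster. Aldoa ranged from 161 to 172 CPM over the 3 Cre- clusters and from 82.5 to 142 CPM over the 6 Tet tcKO clusters. Pkm ranged from 260 to 373 CPM and from 192 to 255 CPM. Pkm, Aldoa and Aldoc lay lower in every Tet tcKO cluster than in every Cre- cluster, as did 7.04% of genes. No member lay higher in every cluster, as did 8.58% of genes. The rod genes used above for background stood at 44.8% to 61.9% of their photoreceptor level in Cre- bipolar nuclei and at 31.9% to 61.5% in Tet tcKO ones. Aldoa (57.5% and 44.4%) and Aldoc (54.9% and 43.5%) lay within both ranges, so these bipolar levels cannot be told apart from background. Pkm stood at 70.5% in Cre-, above the range, and at 52.9% in Tet tcKO, within it. Slc2a1 ranged from 22.1 to 36.5 CPM over the Cre- clusters and from 32.0 to 58.9 CPM over the others, so its clusters overlapped. Müller glia held 251 UMIs of the 9 genes in Cre- and 96 in Tet tcKO. Hk2 (-1.43, -2.75 to -0.28) and Pkm (-0.90, -1.59 to -0.25) were the members whose ratio interval lay below 0 there. Different clusters held most Müller nuclei of each library. In Cre- Müller glia Hk2 and Pkm stood at 67.4% and 74.7% of their photoreceptor level, and the rod genes at 34.9% to 59.4%. The 12 rod markers summed to 6875 and 3559 CPM in bipolar nuclei and to 7142 and 2292 CPM in Müller glia. Their part in the member values was not tested.

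The wider pathway differed step by step. Of 23 further glycolytic enzyme genes, 14 reached 10 CPM, and their median over all nuclei was -0.38, with 11 below 0. The lowest were Pfkp, a phosphofructokinase, at 863 CPM in Cre- against 414 CPM in Tet tcKO (-1.06), Gpi1, the glucose-6-phosphate isomerase, at 355 and 179 CPM (-0.99), and Pfkl, a further phosphofructokinase, at -0.92. The highest were Bpgm, which makes 2,3-bisphosphoglycerate, at 0.51, Pfkm at 0.17 and Eno2, the neuronal enolase, at 0.02. Eno1 and Eno1b are near-identical copies whose reads may be split between them.

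Members and these enzymes were then lined up by step, a grouping made after the values were seen. Of the 7 genes for the steps before aldolase, Hk1, Hk2, Gpi1, Pfkl and Pfkp were 1.5-fold or more lower in pooled photoreceptors, and the median of the 7 was -0.79. Of the 9 genes from triose phosphate to pyruvate, Pkm among them, none was, and their median was -0.07. The genes before aldolase were also longer, 27.8 to 111 kb against 3.08 to 23.3 kb, and the part of length was not tested.

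**Figure D5:**
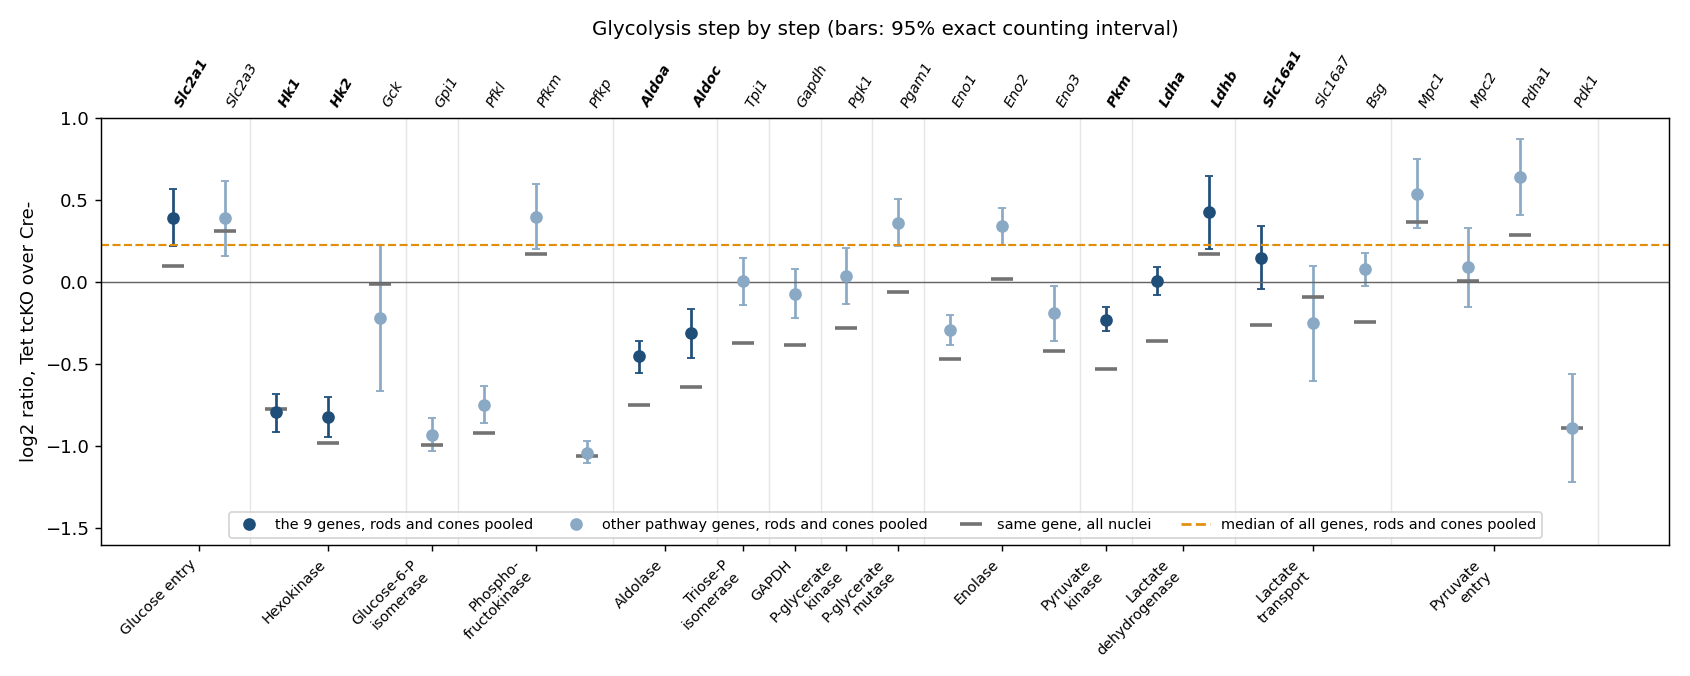
Log2 ratio of Tet tcKO over Cre- (y axis) for genes along glycolysis and its exits (x axis, by step), with points and exact 95% counting intervals for pooled rods and cones, grey dashes for all nuclei and a dashed line at the photoreceptor median of all genes, 0.23. Hk1, Hk2, Gpi1, Pfkl and Pfkp lie at or below -0.75, and genes from Tpi1 to Pkm lie between -0.29 and 0.36.

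Of 12 genes that control glycolytic flux, 9 reached 10 CPM, with a median of 0.12 over all nuclei. Epas1, a hypoxia-inducible factor, was lowest at -1.25 (54.7 and 23.1 CPM), followed by Pfkfb3 at -0.89 and Pfkfb2 at -0.33, which set the level of fructose-2,6-bisphosphate. Txnip, an inhibitor of glucose uptake, was highest at 1.23 (10.8 CPM in Tet tcKO), followed by Vhl, which marks hypoxia-inducible factors for degradation, at 0.73 and Pfkfb4 at 0.32. Of 16 further transport genes, 9 reached 10 CPM, with a median of -0.09. Nxnl1, which encodes rod-derived cone viability factor, was lowest at -1.26 (56.6 and 23.6 CPM), its relative Nxnl2 was at -0.96, and Bsg, which encodes the basigin partner of the lactate carriers, was at -0.24. Slc16a11 at 0.76, Emb at 0.31 and Slc2a3, the neuronal glucose transporter gene, at 0.31 were highest.

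Of 15 genes for the entry of pyruvate into mitochondria, 13 reached 10 CPM, with a median of 0.22, close to the median of all genes (0.15). Pdk3 at 0.78 was highest, a kinase that inhibits pyruvate dehydrogenase, followed by the complex subunits Dlat at 0.48 and Pdhx at 0.47. Pdk1, a further kinase of this kind, was lowest at -0.89 (30.8 and 16.7 CPM), followed by Pcx, the pyruvate carboxylase gene, at 0.00 and Mpc2, a subunit of the pyruvate carrier, at 0.01.

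Over 47 cluster points, each a cluster of 50 nuclei or more in 1 library, the level of Hk2 was most like that of Alpl (Pearson r = 0.95), Frmpd2 (0.95) and Ubtd1 (0.94) among 4849 genes. Hk1 was most like Plcd3 (0.88), Gpsm2 (0.88) and Mef2c (0.86). Pkm was most like Aldoa (0.94), and Aldoa was most like the rod genes Gnat1 and Nrl and the photoreceptor gene Rom1 (0.94 each). Ldha was most like Unc119 (0.95), Slc2a1 most like Tmx1 (0.89), Slc16a1 most like Uhmk1 (0.84) and Aldoc most like Gnat1 (0.88). Ldhb stood apart, with no gene above 0.78 (Atp6v1d) and with 0.17 to 0.61 against the other members. Points share libraries, depth and free RNA, so these values are a description.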

How the data were processed

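Single-nucleus RNA-seq of mouse retina at postnatal day 21 comprised 1 Cre- and 1 Tet tcKO library (PIPseq T20 kit v4.0). Per the labels, the authors processed reads with pipseeker 3.3.0 on GRCm39, and per the methods they removed ambient RNA with CellBender and filtered nuclei in Monocle3. The deposited matrices hold UMI counts, whole numbers per gene and nucleus. The deposited cell tables give totals as counts, the mitochondrial content as a percent, clusters and cell types. The deposited gene table gives a mean signal per genotype, which equalled the mean of counts per 10000 for 32227 of 32227 genes (tolerance 1e-06) and was used only to check the gene order.

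For each class, a gene's UMIs were summed and scaled to 1000000 UMIs of all genes (CPM). Ratios are Tet tcKO over Cre- with exact conditional 95% intervals, shares have Clopper-Pearson intervals, and a count of 0 allows up to 3 counts. With 1 library per genotype no test was made. Shares used nuclei thinned to 500 UMIs. No doublet caller was run, and an alternative leaves out the 5% of nuclei with the most UMIs. The steps were tested on simulated data. Python 3.11.15, numpy 2.4.6, scipy 1.17.1, pandas 2.3.3, and edgeR 4.0.16 in R 4.3.3 (TMM factors only) were used. Alternatives were other scalings, filters on nuclei and ways of counting.

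The members, gene lists and tests were chosen with earlier results of these data known. The symbol Pcx replaced an older one after the gene table was seen. Wider lists are named by their 3 highest and 3 lowest whole-library ratios, with 10 CPM required, and like genes are the 3 with the highest correlation over clusters. Coordinates are from GENCODE on GRCm39, and promoters from RefSeq on GRCm38.p6.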

Additional observations from a re-analysis of the deposited data

Results flagged for a closer look

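Ldha and Slc16a1 had Tet tcKO to Cre- ratios of opposite sign in rods and cones and in another class, with an approximate counting interval of the difference that left out 0. For Ldha the log2 ratio was 0.01 in rods and cones and -0.69 in amacrine cells, a difference of 0.70 (0.28 to 1.11). Against the ratio of -0.52 in RGCs the difference was 0.53 (0.18 to 0.88). For Slc16a1 the log2 ratio was 0.15 in rods and cones and -1.23 in amacrine cells, a difference of 1.38 (0.42 to 2.34) that rests on 14 and 25 amacrine UMIs. The Tet tcKO amacrine level of Slc16a1, 16.6% of that in photoreceptors, cannot be told apart from background. Rod genes stood at 17.5% to 22.9% there and the cone genes Gnat2 and Opn1sw at 15.8% and 17.8%. With 1 library per genotype these differences were not tested over samples. On the TMM scale the photoreceptor values were -0.18 for Ldha and -0.04 for Slc16a1, and the signs no longer differed.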

How the results depend on the processing

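With 1 library per genotype, the limit is the lack of replicates, and the UMI number limits amacrine, RGC and Müller values. No paired analysis was possible because each genotype had 1 library. The median of the 9 genes over all nuclei, -0.53, was -0.64 with TMM and with median-of-ratios factors, -0.47 with a mitochondrial percent under 10, -0.32 with Cre- class shares in both libraries and 0.02 with a mitochondrial percent from 5 to 8. In that last subset, chosen after the data were seen, rods and cones made up 39.1% of Cre- and 77.7% of Tet tcKO nuclei, and Pkm stood at 0.01, Ldha at 0.33, Aldoc at 0.02 and Slc16a1 at 0.25. With Cre- class shares Slc16a1 stood at 0.06. In rods and cones the median, -0.23, was -0.42 with TMM factors, -0.40 with median-of-ratios factors and -0.33 with each gene once per nucleus. Median gene ratios there were 0.23, 0.04 with TMM and 0.06 with median-of-ratios factors. One member, not 0, differed 2-fold or more with TMM factors, with median-of-ratios factors, without mitochondrial genes in the denominator and without the 5% of nuclei with the most UMIs, and 4 differed 1.5-fold or more. Shares of photoreceptors with a UMI of any member, 59.4% in Cre- and 51.4% in Tet tcKO, were 85.1% and 91.8% unthinned. Of 387 single-gene values under alternatives, 331 stayed within the counting interval of the reported value. In all, 33 changed sign, the 5 named above and 28 whose reported interval included 0, among them Ldha and Slc16a1 in rods and cones and Ldhb in amacrine cells. Hk1 and Hk2 in rods and cones ranged from -0.99 to -0.74 and from -1.01 to -0.76.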
